A study of Mus musculus with 6 samples.

Results

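The genes of the major histocompatibility complex (MHC) and of antigen presentation were examined in diabetic mouse kidney. Members were all rows of the gene table with a symbol starting with H2-, together with B2m, Tap1, Tap2, Tapbp, Tapbpl, Psmb8, Psmb9, Psmb10, Psme1, Psme2, Cd74, Ciita, Nlrc5, Cd80 and Cd86, which gave 47 of 17684 genes. They comprised 21 class I heavy chain genes, 11 genes of class I processing and loading, 12 class II genes, 2 costimulatory ligands and 1 further H2- symbol, H2-Ke6. Whole kidneys came from db/db mice, which lack a working long form of the leptin receptor and become obese and diabetic, at 50 weeks of age and with the strain given as C57 BLKS/L in the labels and as C57BLKS/J in the study's methods. The Db group (n = 3) received saline for 40 weeks, and the Db + Ato10 group (n = 3) received the HMG-CoA reductase inhibitor atorvastatin at 10 mg/kg per day for the same 40 weeks. Both groups carried the diabetic genotype, and lean mice were not analysed here. One field of the labels gives atorvastatin for all 6 libraries, whereas the treatment characteristic differs between the groups and was followed.

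MHC class I molecules display peptides from the cytosol to CD8 T cells and are made by nearly every nucleated cell, tubular epithelium included. Their peptides are cut by the proteasome, whose inducible subunits form the immunoproteasome, pumped into the endoplasmic reticulum by TAP and loaded onto a heavy chain paired with beta-2 microglobulin. MHC class II molecules display peptides from endosomes to CD4 T cells, are made mainly by dendritic cells, macrophages and B cells, and can be induced in tubular epithelium by interferon gamma.

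The libraries held 13134930, 11381678 and 12426051 expected counts in Db replicates 1 to 3 and 14578023, 14667909 and 13133241 in Db + Ato10 replicates 1 to 3. A count of 0 allowed up to 3 counts, or 0.195 to 0.26 CPM (counts scaled to library size), for counting error only. Of the 47 members, 37 had at least 10 counts in at least 3 libraries and were tested, and 5 stayed under 10 counts in each library. H2-Q1 reached 10 counts in no Db library and so was tested only through the group where it was high. Kidney identity was clear from the markers, with Slc34a1, the phosphate transporter of the proximal tubule, at 3047, 2388 and 2811 TPM (transcript level scaled to length and library size) in Db and 273, 1396 and 2945 TPM in Db + Ato10. It was lower in Db + Ato10 replicates 1 and 2 than in the other libraries, and replicate 3 lay within the Db range.

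The libraries differed in ways that did not follow the groups. Summed over 4 Y-linked genes, Db replicate 1 held 2 counts, whereas the other libraries held 1419 to 2116, although the study describes male mice. The curated RefSeq transcript of H2-K1 took 9.68%, 48.3% and 45.9% of the H2-K1 counts in Db and 9.36%, 46.4% and 9.07% in Db + Ato10. The first predicted model of the same gene took 72.6%, 35.5% and 36.4% in Db and 73.1%, 34.5% and 74.0% in Db + Ato10. Db replicate 1 and Db + Ato10 replicates 1 and 3 thus shared one division of H2-K1 reads, and Db replicates 2 and 3 and Db + Ato10 replicate 2 shared another, with members of both groups on each side.

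The same libraries were divided in class II. H2-Ea-ps is the C57BL/6 reference copy of the E alpha chain gene, which lacks its promoter in that strain and is intact in others. Its counts relative to those of H2-Eb1, the E beta chain, were 0.422, 0.195 and 0.198 in Db and 0.309, 0.189 and 0.403 in Db + Ato10. The 3 libraries with little curated H2-K1 transcript had the 3 highest ratios. H2-Ea-ps held 160 to 1461 counts over the 6 libraries, so RNA assigned to this gene was present in each. MHC genes are among the most variable between mouse strains, and reads were counted against reference transcripts. The part of this division in the values below was not tested.

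**Figure D1:**
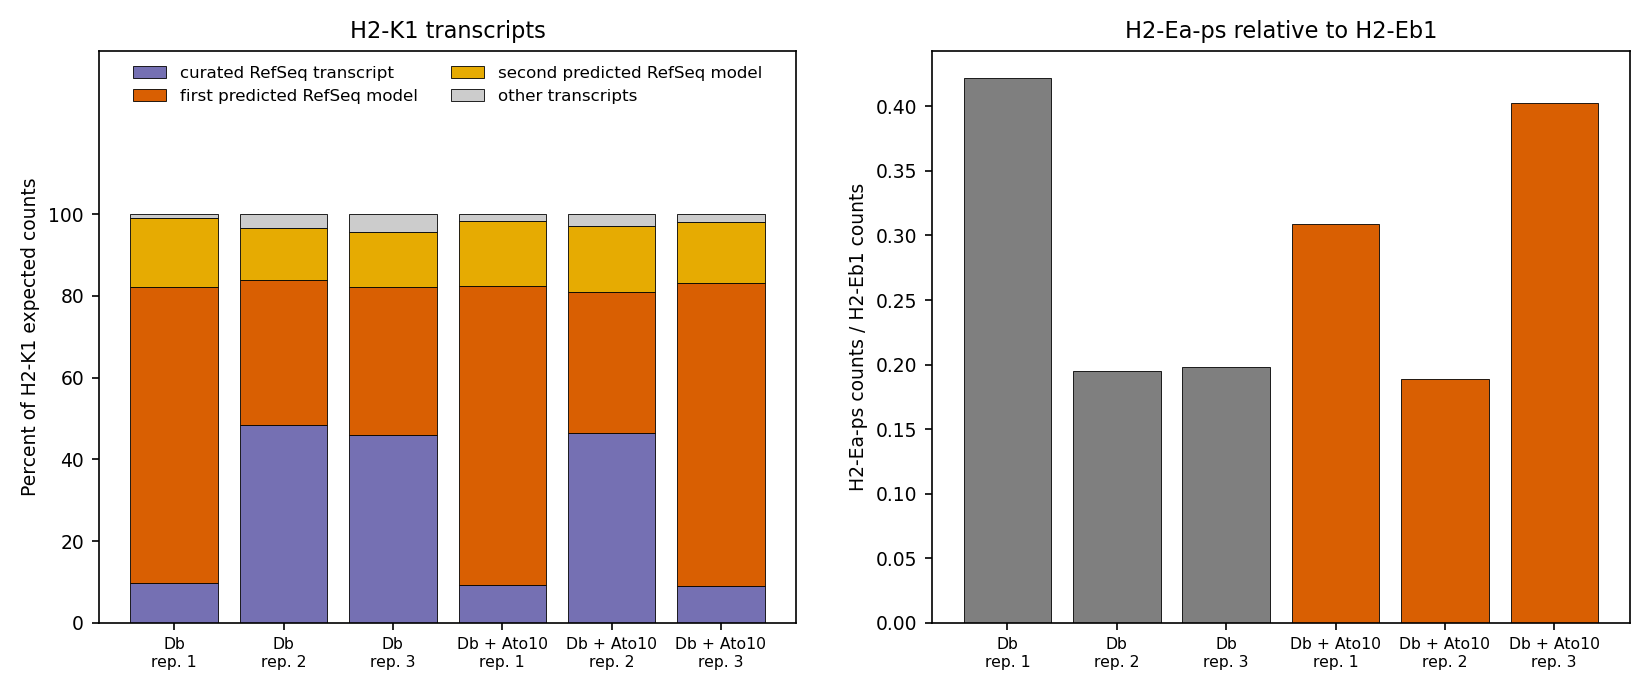
Division of the libraries by MHC reads. Left, percent of H2-K1 expected counts (y axis) in each of the 6 libraries (x axis), with 1 color per transcript; right, ratio of H2-Ea-ps to H2-Eb1 expected counts, with Db in grey and Db + Ato10 in orange. The curated H2-K1 transcript takes 9.07% to 9.68% in 3 libraries, which also have ratios of 0.309 to 0.422, and 45.9% to 48.3% in the other 3, with ratios of 0.189 to 0.198.

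To ask whether atorvastatin-treated kidneys differed in antigen presentation RNA, the 3 Db + Ato10 libraries were compared with the 3 Db libraries. Most class I genes and all 9 tested class II genes were higher in Db + Ato10 replicates 1 and 2, while the class medians of Db + Ato10 replicate 3 lay close to the Db mean. By class medians the 2 high libraries were alike in class I but not in class II, which was about 3-fold higher in replicate 2 than in replicate 1. Single heavy chains differed between these libraries in both directions. By edgeR's quasi-likelihood test and Benjamini-Hochberg adjustment and a 1.5-fold threshold, 0 of 37 members were called (0% of all 13679 genes tested were), and the smallest adjusted p was 0.239. At an unadjusted p under 0.05, 23 of 37 members were higher in Db + Ato10 and 0 were lower, against 11.2% and 5.71% of all genes tested; without H2-Q1 it was 22 of 36. With at least 10 counts required in every library, 23 of 32 were higher and 0 lower, against 10.6% higher of all genes so tested. DESeq2 called 16 members higher and 0 lower, against 5.19% and 1.3% of the genes it tested.

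The CPM values of the groups did not overlap for 12 of 37 members (11 of 36 without H2-Q1), all higher in Db + Ato10, against 11.8% of all genes tested; 0 were lower, against 11.4%. The calls depended on single libraries. Without Db + Ato10 replicate 3, edgeR called 21 of 35 members higher and 0 lower, against 5.96% and 2.23% of the genes tested. Without Db replicate 1, Db replicate 3 or Db + Ato10 replicate 2, the number higher at an unadjusted p under 0.05 was 9 of 37, 10 of 36 and 10 of 35, respectively, against 5.16%, 5.23% and 8.39% of all genes tested in the same fits. In whole tissue, a change in the number of cells of a type and a change in RNA per cell cannot be told apart, so more cells and more RNA per cell give the same reading.

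Among class I heavy chains, H2-K1 and H2-D1 encode the classical chains that present peptides to CD8 T cells. H2-K1 was at 161, 283 and 258 CPM in Db and at 905, 1021 and 262 CPM in Db + Ato10. H2-D1 was at 245, 329 and 305 CPM in Db and at 1074, 1081 and 367 CPM in Db + Ato10. Both genes were high in Db + Ato10 replicates 1 and 2; replicate 3 was within the Db range for H2-K1 and just above it for H2-D1, so that the groups overlapped for H2-K1 only. The log2 fold change was 1.65 ± 0.52 (SE) for H2-K1 and 1.53 ± 0.43 for H2-D1, each with an adjusted p of 0.239 by edgeR's quasi-likelihood test and Benjamini-Hochberg adjustment. The DESeq2 Benjamini-Hochberg adjusted p was 0.0286 for H2-K1 and 0.0131 for H2-D1, and over all alternatives these were the lowest values, the highest being 0.588 for both.

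Db + Ato10 libraries were also set beside Db libraries with the same division of H2-K1 reads. For H2-K1 the CPM ratio was 5.61 for Db + Ato10 replicate 1 over Db replicate 1 and 1.63 for Db + Ato10 replicate 3 over Db replicate 1. Db + Ato10 replicate 2 was 3.61 times Db replicate 2 and 3.96 times Db replicate 3. For Cd74, the class II invariant chain, the same 4 ratios were 3.14, 1.12, 9.52 and 12.4. Against Db replicate 1, Db + Ato10 replicate 1 was higher than replicate 3 for both genes; replicate 2 falls on the other side of the division, where Db + Ato10 has no further library. Over the 13 heavy chains with a ratio Db + Ato10 replicate 3 was 0.652 to 2.48 times Db replicate 1, with a median of 1.49 and 10 of 13 above 1. Over the 11 processing and loading genes it was 0.96 to 2.4 times Db replicate 1, with a median of 1.45, and over the 9 class II genes 1.11 to 2.18 times, with a median of 1.19. Of the processing and class II genes, all but Tapbpl were above Db replicate 1, which was the lowest Db library for most of them.

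The other heavy chains are genes of the H2-Q, H2-T and H2-M families, with many near-identical copies, and H2-Bl. Counts were not whole for 14 of the 21 heavy chain genes, H2-K1 and H2-D1 included, which marks reads shared with other genes and leaves single values uncertain; those of the H2-M genes were whole. H2-Q4 was at 17.0, 31.3 and 34.9 CPM in Db and at 67.4, 95.7 and 28.4 CPM in Db + Ato10. H2-Q9 was at 2.54, 1.04 and 0.727 CPM in Db and at 6.18, 6.81 and 2.99 CPM in Db + Ato10. H2-Q1 was at 0.635, 0.433 and 0.404 CPM in Db and at 2.8, 1.28 and 0.945 CPM in Db + Ato10. The groups did not overlap for H2-Q9 and H2-Q1 and overlapped for H2-Q4, and H2-Q9 and H2-Q4 had an unadjusted p under 0.05 by edgeR. H2-Q1 had 8, 5 and 5 counts in Db and 43, 19 and 12 in Db + Ato10, so the filter on low counts favoured a difference.

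The other 10 tested heavy chain genes were past an unadjusted p of 0.05 in neither direction. H2-M3, which presents formylated bacterial peptides, was at 1.43, 3.03 and 2.74 CPM in Db and at 8.32, 6.14 and 2.44 CPM in Db + Ato10. H2-T23, which encodes Qa-1, a ligand of inhibitory receptors on natural killer cells, was at 62.5, 83.2 and 88.8 CPM in Db and at 61.5, 119 and 67.8 CPM in Db + Ato10. H2-T22, a ligand of gamma delta T cells, was at 30.6, 63.7 and 68.4 CPM in Db and at 51.7, 80 and 45.7 CPM in Db + Ato10. H2-M3 was high in Db + Ato10 replicates 1 and 2 like the classical chains, whereas H2-T23 and H2-T22 were not high in replicate 1. Both H2-T23 and H2-T22 were lower in the libraries with little curated H2-K1 transcript than in the others. Against Db replicate 1, which shares that division, Db + Ato10 replicate 1 was 0.983 times for H2-T23 and 1.69 times for H2-T22. H2-T24 was at 4.84 to 7.47 CPM in Db and 2.97 to 5.35 CPM in Db + Ato10, and H2-T10, H2-T-ps, H2-Q2, H2-Q6, H2-Q7 and H2-Q8 also overlapped between the groups. The median log2 fold change was 0.49 over the 15 tested heavy chains and 1.59 over H2-K1 and H2-D1, with -0.0063 over all genes tested. Leaving out Db replicate 2 gave a heavy chain median of 1.16, and leaving out Db replicate 3 gave 1.11.

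Of the 6 heavy chain genes not tested, H2-M2 held 0, 0 and 1 counts in Db and 7, 92 and 0 in Db + Ato10, so that nearly all of its counts were in replicate 2. H2-Q10 held 1 to 4 counts in Db and 6, 24 and 4 in Db + Ato10. H2-Bl, H2-M10.1, H2-M5 and H2-M9 held at most 2 counts in any library.

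Log2 fold changes of the processing and loading genes ran from 0.58 for Tapbpl to 2.51 for Psmb8. Among the 11 genes, 11 had a log2 fold change above 0 (49.4% of all genes tested did), 10 were higher at an unadjusted p under 0.05 (11.2% of all genes tested), DESeq2 called 5 higher (5.19%), and the median log2 fold change was 1.42. B2m, which encodes the beta-2 microglobulin light chain, was at 281, 449.6 and 358 CPM in Db and at 1212, 1280.4 and 409 CPM in Db + Ato10. Nlrc5, the transactivator of class I promoters, was at 2.22, 5.8 and 3.63 CPM in Db and at 17.4, 24.5 and 4.64 CPM in Db + Ato10. Both were high in Db + Ato10 replicates 1 and 2, and replicate 3 lay within the Db range. For B2m the log2 fold change was 1.42 ± 0.46 (SE) and the adjusted p 0.239 by edgeR's quasi-likelihood test and Benjamini-Hochberg adjustment, and for Nlrc5 they were 2.0 ± 0.65 and 0.239.

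The inducible catalytic subunits of the immunoproteasome are Psmb8, Psmb9 and Psmb10. Psmb8 was at 6.27, 13.6 and 10.2 CPM in Db and at 58.6, 97.5 and 14.5 CPM in Db + Ato10. Psmb9 was at 2.3, 5.98 and 4.04 CPM in Db and at 17.2, 23.5 and 4.25 CPM in Db + Ato10. Psmb10 was at 7.47, 14.5 and 12.7 CPM in Db and at 36.4, 51.0 and 16.9 CPM in Db + Ato10. All 3 were high in Db + Ato10 replicates 1 and 2, and replicate 3 was above the Db range for Psmb8 and Psmb10 but not for Psmb9. The log2 fold change was 2.51 ± 0.68 (SE) for Psmb8, 1.87 ± 0.66 for Psmb9 and 1.6 ± 0.44 for Psmb10. By edgeR's quasi-likelihood test and Benjamini-Hochberg adjustment, the adjusted p was 0.239, 0.252 and 0.239, respectively.

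Each inducible subunit replaces a constitutive one, Psmb8 for Psmb5, Psmb9 for Psmb6 and Psmb10 for Psmb7. The TPM ratio of Psmb8 to Psmb5 was 0.0424, 0.0856 and 0.0579 in Db and 0.3, 0.556 and 0.0751 in Db + Ato10. The ratio of Psmb9 to Psmb6 was 0.0312, 0.0687 and 0.049 in Db and 0.186, 0.293 and 0.0443 in Db + Ato10. The ratio of Psmb10 to Psmb7 was 0.0431, 0.093 and 0.0658 in Db and 0.236, 0.335 and 0.0889 in Db + Ato10. In Db + Ato10 replicates 1 and 2 all 3 ratios were above those of the other 4 libraries, and all stayed below 1, so constitutive subunit RNA remained the more abundant. Psmb5 itself was at 99.0 to 118 CPM in Db and 118 to 131 CPM in Db + Ato10. Of the 11 constitutive proteasome and endoplasmic reticulum chaperone genes, 0 were past an unadjusted p of 0.05 by edgeR, DESeq2 called 0, and the median log2 fold change was -0.039. Sec61a1, a subunit of the translocon, was at 122, 119.6 and 115 CPM in Db and at 179, 157 and 123 CPM in Db + Ato10, which did not overlap, with a log2 fold change of 0.37 ± 0.17 (SE). The most abundant of them, Calr, a chaperone of the loading complex, was at 1002, 482 and 788 CPM in Db and at 781, 806 and 663 CPM in Db + Ato10, which overlapped. Its log2 fold change of -0.0067 ± 0.3 (SE) changed sign with the processing.

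Psme1 and Psme2 encode the inducible cap of the proteasome. Psme1 was at 61.8, 81.6 and 73.5 CPM in Db and at 125, 146 and 84.0 CPM in Db + Ato10. Psme2, with counts that were not whole, was at 48.7, 60.2 and 57.4 CPM in Db and at 103, 118 and 69.0 CPM in Db + Ato10. The groups did not overlap for either gene, and the differences were smaller than for the catalytic subunits, with log2 fold changes of 0.72 ± 0.23 and 0.81 ± 0.22 (SE). Psme4, an alternative activator and the constitutive gene with the smallest p, was at 161, 127 and 152 CPM in Db and at 91.6, 111 and 131 CPM in Db + Ato10.

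The peptide transporter is formed by Tap1 and Tap2, and tapasin, encoded by Tapbp, holds the empty heavy chain to it. Tap1 was at 4.84, 15 and 11.3 CPM in Db and at 38.4, 49.5 and 11.6 CPM in Db + Ato10. Tap2 was at 16.9, 24.1 and 24.1 CPM in Db and at 51.2, 78.4 and 22.7 CPM in Db + Ato10. Tapbp was at 68.1, 90.0 and 89.0 CPM in Db and at 183, 249 and 93.2 CPM in Db + Ato10. All 3 were high in Db + Ato10 replicates 1 and 2, and the groups did not overlap for Tapbp only. Tapbpl, which encodes the peptide editor TAPBPR, was the 1 gene of the class not past an unadjusted p of 0.05; it was at 12.6, 15.2 and 13 CPM in Db and at 16.9, 31.7 and 12.1 CPM in Db + Ato10.

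Class II genes ranged widely between libraries. Cd74, the invariant chain that fills the class II groove until it reaches the endosome, was at 230.5, 306 and 234 CPM in Db and at 725, 2912 and 257 CPM in Db + Ato10. H2-Ab1, the A beta chain, was at 114, 126 and 98.3 CPM in Db and at 345, 1105 and 127 CPM in Db + Ato10. H2-Aa, the A alpha chain, was at 66.6, 111 and 94.0 CPM in Db and at 258, 793 and 98.2 CPM in Db + Ato10. All 3 were highest in Db + Ato10 replicate 2, intermediate in replicate 1 and near Db in replicate 3, which left the groups narrowly apart for H2-Ab1 and overlapping for Cd74 and H2-Aa. The log2 fold change was 2.34 ± 0.83 (SE) for Cd74, 2.22 ± 0.73 for H2-Ab1 and 2.09 ± 0.72 for H2-Aa. By edgeR's quasi-likelihood test and Benjamini-Hochberg adjustment, the adjusted p was 0.256, 0.239 and 0.249, respectively. With DESeq2 the Benjamini-Hochberg adjusted p was 0.0314, 0.0221 and 0.0346, the smallest over all alternatives, the highest being 0.588 for each. Leaving out Db + Ato10 replicate 2 lowered the log2 fold changes to 0.97, 1.1 and 1.01, respectively.

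H2-Eb1, the E beta chain, was at 54.8, 80 and 65.4 CPM in Db and at 178, 521 and 65.3 CPM in Db + Ato10. H2-Ea-ps was at 23.1, 15.6 and 12.9 CPM in Db and at 55.0, 98.5 and 26.3 CPM in Db + Ato10. Both followed the order of the A chains in Db + Ato10, and the groups overlapped for H2-Eb1 but not for H2-Ea-ps, whose ratio to H2-Eb1 divided the libraries as described above. H2-Eb2, a further E beta gene, held 0 counts in each Db library and 14, 19 and 0 counts in Db + Ato10 and was not tested.

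H2-DMa and the DM beta genes encode H2-M, which exchanges the invariant chain peptide for antigen. H2-DMa was at 9.85, 11 and 10.9 CPM in Db and at 35.6, 115 and 16.6 CPM in Db + Ato10. H2-DMb1 was at 8.82, 20.4 and 14.0 CPM in Db and at 26.7, 164 and 10.3 CPM in Db + Ato10. H2-DMb2 was at 1.19, 1.91 and 1.37 CPM in Db and at 15.5, 56.7 and 2.6 CPM in Db + Ato10. All 3 were highest in Db + Ato10 replicate 2, and the groups did not overlap for H2-DMa and H2-DMb2. H2-DMb2 had the largest log2 fold change of the tested members, 4.07 ± 1.07 (SE), with an adjusted p of 0.239 by edgeR's quasi-likelihood test and Benjamini-Hochberg adjustment. Leaving out Db + Ato10 replicate 2 gave 2.64 for H2-DMb2, 1.34 for H2-DMa and 0.4 for H2-DMb1. H2-DMb1 and H2-DMb2 are near-identical neighbours whose counts were not whole, so the share of each is uncertain. H2-Oa and H2-Ob, which encode the inhibitor of H2-M found in B cells, were not tested, with 1 to 2 and 4 to 11 counts in Db and 1 to 4 and 3 to 16 counts in Db + Ato10.

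Ciita, the transactivator of class II promoters, was at 2.38, 3.64 and 4.44 CPM in Db and at 5.01, 27.8 and 4.41 CPM in Db + Ato10. It was high in Db + Ato10 replicate 2 only, with replicate 1 just above and replicate 3 within the Db range. The log2 fold change of 1.83 ± 0.77 (SE) had an adjusted p of 0.3 by edgeR's quasi-likelihood test and Benjamini-Hochberg adjustment, and without Db + Ato10 replicate 2 it was at its lowest over all alternatives, 0.46.

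Over the 9 tested class II genes the median log2 fold change was 2.22, 7 were higher at an unadjusted p under 0.05 (11.2% of all genes tested), 0 were lower (5.71%), and DESeq2 called 7 higher (5.19%). Leaving out Db + Ato10 replicate 2 gave a median of 1.01, and leaving out replicate 3 gave 2.69.

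Class I and class II were set side by side within the Db + Ato10 group. Relative to the Db mean CPM, the median over class II genes was 2.85-fold in replicate 1, 9.8-fold in replicate 2 and 1.12-fold in replicate 3. For the processing and loading genes the medians were 3.16-fold, 3.61-fold and 1.13-fold, and for heavy chains 1.91-fold, 2.55-fold and 1.02-fold. The CPM ratio of replicate 2 to replicate 1 had a median of 3.24 over class II genes, 1.37 over processing and loading genes and 1.01 over heavy chains. All 9 class II genes and all 11 processing and loading genes were higher in replicate 2 than in replicate 1. The difference was over 2-fold for 8 of 9 class II genes, 0 of 11 processing and loading genes and 1 of 15 heavy chains. For processing and loading genes the ratios ran from 1.06 to 1.87. Among the heavy chains 8 of 15 were higher in replicate 2. Their ratios ran from 0.0 for H2-Q6 and 0.458 for H2-Q1 to 6.74 for H2-Q2. These ratios compare 1 library with 1 library and have no replicate check.

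Per length, the summed level of the class II chains H2-Aa, H2-Ab1, H2-Ea-ps and H2-Eb1 was 428, 535 and 437 TPM in Db and 1234, 4047 and 494 TPM in Db + Ato10. The summed level of H2-K1 and H2-D1 was 414, 643 and 590 TPM in Db and 1809, 2199 and 601 TPM in Db + Ato10. Class II RNA divided by class I RNA was 1.03, 0.833 and 0.741 in Db and 0.682, 1.84 and 0.822 in Db + Ato10. Db + Ato10 replicate 2 had the highest ratio and replicate 1 the lowest of all 6 libraries, so the groups overlapped. Cd74 was the most abundant class II gene in TPM, and B2m the most abundant class I gene, at 674, 1069.7 and 854 TPM in Db and 2594, 3036 and 918 TPM in Db + Ato10. In Db + Ato10 replicate 2 alone Cd74, at 4440.2 TPM, exceeded B2m.

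**Figure D2:**
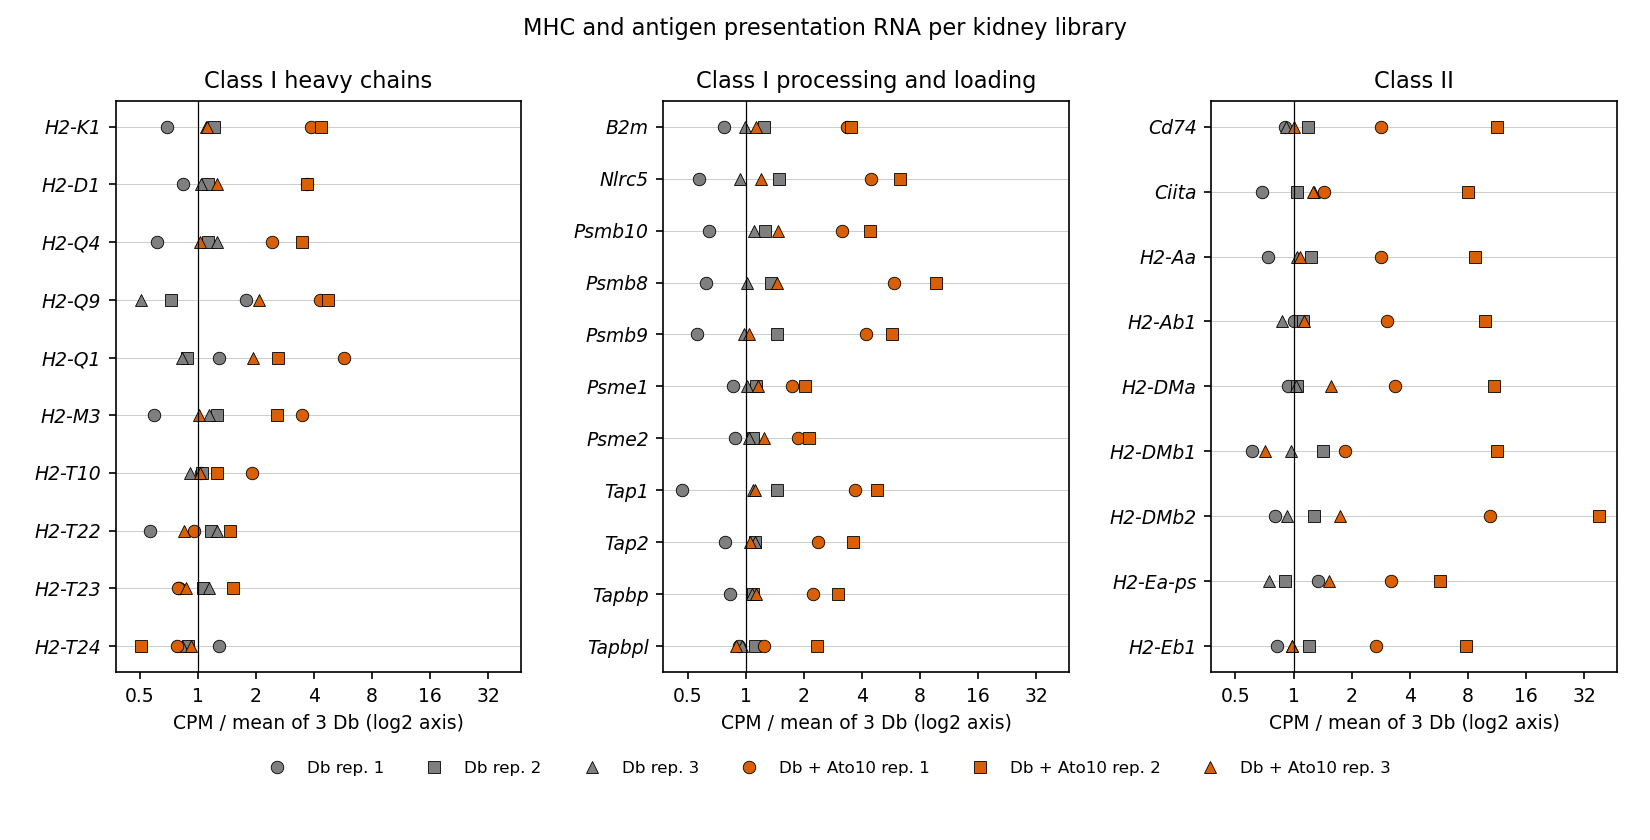
RNA of tested members in each library. The x axis gives CPM divided by the mean of the 3 Db libraries (log2 axis), the y axis the genes, with 10 of the 15 heavy chains and all genes of the other classes, and each point is 1 library, Db in grey and Db + Ato10 in orange, with a symbol per replicate. Db + Ato10 replicates 1 and 2 lie close together for processing and loading genes (median 3.16-fold and 3.61-fold) and apart for class II genes (2.85-fold and 9.8-fold), while replicate 3 lies near 1.

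Cd74 was counted as 2 transcripts, whose coding sequences are 837 and 645 bases and give proteins of 279 and 215 amino acids. The longer one took 20.2%, 20.6% and 22.9% of the Cd74 counts in Db and 14.4%, 15% and 21.1% in Db + Ato10. The share was lower in Db + Ato10 replicates 1 and 2 than in the other 4 libraries, and the groups overlapped through replicate 3.

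Endosomal enzymes that prepare class II peptides were described from a list of 9 genes found in the table. At an unadjusted p under 0.05 by edgeR, 4 of 9 were higher and 0 lower, against 11.2% and 5.71% of all genes tested. EdgeR called 0 (0% of all genes tested) and DESeq2 called 2 higher (5.19%). Ctss, the cathepsin that trims the invariant chain in antigen-presenting cells, was at 13.7, 31.5 and 16 CPM in Db and at 510.3, 168 and 26.8 CPM in Db + Ato10. Ctsd, an aspartic protease, was at 947, 1183 and 889 CPM in Db and at 2596, 2029 and 1391 CPM in Db + Ato10. It had the highest TPM of the list in the mean over all libraries, but Ctsb was above it in Db replicates 1 and 3. March1, a ubiquitin ligase that removes class II from the surface, was at 1.83, 2.34 and 4.44 CPM in Db and at 18.3, 6.88 and 3.23 CPM in Db + Ato10. All 3 were highest in Db + Ato10 replicate 1, unlike the class II chains, and of these the groups did not overlap for Ctsd only. Other genes of the list differed. Lgmn was at 869, 961 and 812 CPM in Db and at 776, 1805 and 1314 CPM in Db + Ato10. It was highest in replicate 2. March8 was at 177, 163 and 179 CPM in Db and at 91.1, 146 and 159 CPM in Db + Ato10. Its groups did not overlap, with Db + Ato10 lower.

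Of 12 factors that bind MHC promoters, 3 were higher and 0 lower at an unadjusted p under 0.05 by edgeR, against 11.2% and 5.71% of all genes tested. EdgeR called 0 (0% of all genes tested), DESeq2 called 2 higher (5.19%), and the median log2 fold change was 0.19. The 3 were Spi1, a myeloid factor, Irf4, a lymphocyte and dendritic cell factor, and Irf1, which interferon gamma induces. Spi1 was at 2.14, 4.42 and 4.04 CPM in Db and at 125, 22.7 and 6.14 CPM in Db + Ato10. Irf4 was at 0.318, 0.866 and 0.646 CPM in Db and at 6.05, 4.18 and 0.63 CPM in Db + Ato10. Irf1 was at 11.8, 16.7 and 17.6 CPM in Db and at 39.7, 54.4 and 17.0 CPM in Db + Ato10. Spi1 and Irf4 were highest in Db + Ato10 replicate 1 and Irf1 in replicate 2. Irf4 held 4, 10 and 8 counts in Db and 93, 62 and 8 in Db + Ato10, so the filter on low counts favoured a difference. Rfx5, Rfxap and Rfxank, the RFX subunits that both class I and class II promoters use, lay at 13.3 to 23.9 CPM in all 6 libraries, and Nfyc, a subunit of the CCAAT-binding factor with the highest mean TPM of the list, at 88.2 to 97.4 CPM in Db and 73.2 to 89.3 CPM in Db + Ato10.

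In the interferon gamma pathway, 7 of 11 tested genes were higher and 0 lower at an unadjusted p under 0.05 by edgeR, against 11.2% and 5.71% of all genes tested. EdgeR called 0 (0% of all genes tested), DESeq2 called 4 higher (5.19%), and the median log2 fold change was 1.29. Ifng itself was at 0 in each Db library and in Db + Ato10 replicates 2 and 3, and at 0.195 CPM in replicate 1, which is the value of 3 counts. Cxcl9, a chemokine induced by interferon gamma, was at 0.794, 0.606 and 0.161 CPM in Db and at 18.1, 9.17 and 1.34 CPM in Db + Ato10. Gbp2, an interferon-induced GTPase, was at 10.2, 11.1 and 9.28 CPM in Db and at 48.3, 162 and 11.5 CPM in Db + Ato10. The groups did not overlap for either gene, and Gbp2, like the class II chains, was highest in Db + Ato10 replicate 2, while Cxcl9 was highest in replicate 1. Socs1, the feedback inhibitor of the pathway, was at 0.794, 0.52 and 0.565 CPM in Db and at 4.49, 2.63 and 0.945 CPM in Db + Ato10. Ifngr1, a receptor chain with the highest TPM of the list in the mean of all 6 libraries, though below the kinase gene Jak1 in each Db library, was at 31.6, 40.8 and 27.0 CPM in Db and at 128, 101 and 38.0 CPM in Db + Ato10. Socs1 did not overlap between the groups, and Ifngr1 did. In Db, Cxcl9 held 10, 7 and 2 counts and Socs1 held 10, 6 and 7. Both passed the filter on low counts through the Db + Ato10 libraries, so the filter favoured a difference.

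The costimulatory ligands Cd80 and Cd86, which engage CD28 and CTLA-4 on T cells, were ordered unlike class II. Cd80 held 0, 3 and 0 counts in Db and 162, 16 and 7 in Db + Ato10 and was not tested, having at least 10 counts in fewer than 3 libraries. Cd86 was at 0.874, 2.51 and 1.21 CPM in Db and at 11.7, 6.54 and 2.05 CPM in Db + Ato10. Both were highest in Db + Ato10 replicate 1, and the groups overlapped for Cd86. Its log2 fold change was 2.16 ± 0.71 (SE) with an adjusted p of 0.239 by edgeR's quasi-likelihood test and Benjamini-Hochberg adjustment. Leaving out Db + Ato10 replicate 1 lowered the log2 fold change to 1.51, and leaving out Db replicate 2 raised it to 2.7.

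Of 9 other costimulation and checkpoint genes, 3 were tested. At an unadjusted p under 0.05 by edgeR, 2 were higher and 0 lower, against 11.2% and 5.71% of all genes tested. EdgeR called 0 (0% of all genes tested) and DESeq2 called 2 higher (5.19%). Cd274, which encodes the inhibitory ligand PD-L1, was at 3.89, 4.33 and 5.89 CPM in Db and at 100.2, 9.71 and 4.72 CPM in Db + Ato10. Cd40, a receptor that activates antigen-presenting cells, was at 1.27, 1.73 and 1.13 CPM in Db and at 6.44, 6.0 and 2.68 CPM in Db + Ato10. Icosl, the ligand of ICOS on T cells, was at 6.91, 10.0 and 8.15 CPM in Db and at 17.2, 9.84 and 9.37 CPM in Db + Ato10. Cd274 was high in Db + Ato10 replicate 1 above all, Cd40 was higher in each Db + Ato10 library than in each Db library, and Icosl overlapped.

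H2-Ke6 carries an H2- symbol by its position and encodes the dehydrogenase Hsd17b8, not an MHC chain. It was at 94.5, 78.0 and 87.3 CPM in Db and at 45.3, 60.2 and 107 CPM in Db + Ato10, with a log2 fold change of -0.29 ± 0.31 (SE). It was low in Db + Ato10 replicates 1 and 2, where the MHC genes were high, and the groups overlapped.

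Markers of leukocytes and of kidney cell types, only some of which make class II, were read beside these values. The leading gene of each list is the one with the highest mean TPM over all 6 libraries. All 9 macrophage markers were higher at an unadjusted p under 0.05 by edgeR (11.2% of all genes tested), edgeR called 0 (0%) and DESeq2 called 8 higher (5.19%). Their summed level was 148, 329 and 229.6 TPM in Db and 6767, 1984 and 338 TPM in Db + Ato10. The most abundant, Lyz2, which encodes lysozyme, was at 38.9, 107 and 76.8 TPM in Db and at 4395, 993 and 114 TPM in Db + Ato10. Neutrophils also make Lyz2, and their markers were highest in Db + Ato10 replicate 1 too. Without Lyz2 the other 8 summed to 109, 221 and 153 TPM in Db and 2373, 991 and 224 TPM in Db + Ato10. In CPM, 8 of the 9 were higher in replicate 1, the library with the lower class II level of the 2, than in replicate 2; Cx3cr1 was not, at 24.3 and 30.1 CPM. Cd74 divided by the sum without Lyz2 in TPM was 3.23, 2.1 and 2.32 in Db and 0.422, 4.48 and 1.64 in Db + Ato10, lowest in replicate 1.

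The 3 pan-leukocyte markers were all higher at an unadjusted p under 0.05 by edgeR (11.2% of all genes tested), and DESeq2 called 3 higher (5.19%). Their sum was 12.3, 31.4 and 20 TPM in Db and 421, 106 and 30.4 TPM in Db + Ato10, led by Coro1a in the mean and by Laptm5 in each library but Db + Ato10 replicate 1. Of 4 neutrophil markers, 3 were tested and 3 were higher at that limit; DESeq2 called Csf3r and gave no p for S100a8 and S100a9. Their sum, led by S100a9, was 21.0, 35.5 and 16.1 TPM in Db and 41359.7, 401 and 38.6 TPM in Db + Ato10; Ly6g was at 0 in Db replicate 2 and Db + Ato10 replicate 3. Both lists were highest in Db + Ato10 replicate 1.

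Dendritic cell and lymphocyte markers were low. Their counts at an unadjusted p under 0.05 by edgeR stand beside 11.2% higher and 5.71% lower of all genes tested. Of 8 dendritic cell markers, 5 were tested and 1 was higher at an unadjusted p under 0.05, with a sum, led by Zbtb46 in the mean and in each Db library, of 8.3, 10.2 and 6.57 TPM in Db and 14.0, 12.8 and 7.46 TPM in Db + Ato10; Cd209a was at 0 in each Db + Ato10 library and Ccr7 at 0 in Db replicate 3. Of 5 B cell markers, 1 was tested and higher at that limit, with a sum, led by Cd79a in the mean and by Cd79b in each library but Db + Ato10 replicate 1, of 0.84, 3.02 and 1.26 TPM in Db and 21.6, 5.94 and 2.0 TPM in Db + Ato10; Ms4a1 was at 0 in Db replicates 1 and 2 and Pax5 in Db + Ato10 replicate 3. The B cell sum was higher in Db + Ato10 replicate 1 than in replicate 2, while the dendritic cell sum was close in both and its order turned with the scale, at 24.1 and 24.5 CPM. Itgax, the dendritic cell marker past that limit, which macrophages also express, was at 0.635, 2.25 and 1.61 CPM in Db and at 7.87, 11.3 and 4.64 CPM in Db + Ato10, highest in replicate 2. Of the 5 tested markers, 3 had a log2 fold change above 0 and 2 below, Clec9a at -0.39 ± 0.35 (SE) and Zbtb46 at -0.11 ± 0.23. Clec9a was at 1.91, 2.17 and 1.7 CPM in Db and at 1.69, 0.944 and 1.73 CPM in Db + Ato10, lowest in replicate 2. Of 6 T cell markers, 3 were tested and 1 was higher at that limit, with a sum, led by Cd3g, of 1.66, 6.48 and 2.43 TPM in Db and 18.5, 23.8 and 3.62 TPM in Db + Ato10; Cd8b1 was at 0 in Db replicate 1. Of 4 natural killer cell markers, 1 was tested and higher at that limit, with a sum, led by Nkg7, of 0.83, 3.07 and 1.24 TPM in Db and 9.06, 5.02 and 1.81 TPM in Db + Ato10; Ncr1 was at 0 in Db + Ato10 replicate 3 and Klrb1c in Db replicate 3. The T cell sum was higher in Db + Ato10 replicate 2 than in replicate 1 in TPM but not in CPM, at 18.0 and 16.6 CPM in replicates 1 and 2. In Db, Cd3g held 3, 12 and 5 counts, Cd79b 5, 13 and 4, and Nkg7 3, 11 and 4. These genes, past that limit for T, B and natural killer cells, passed the filter on low counts mainly through the Db + Ato10 libraries. The filter thus favoured a difference for each.

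**Figure D3:**
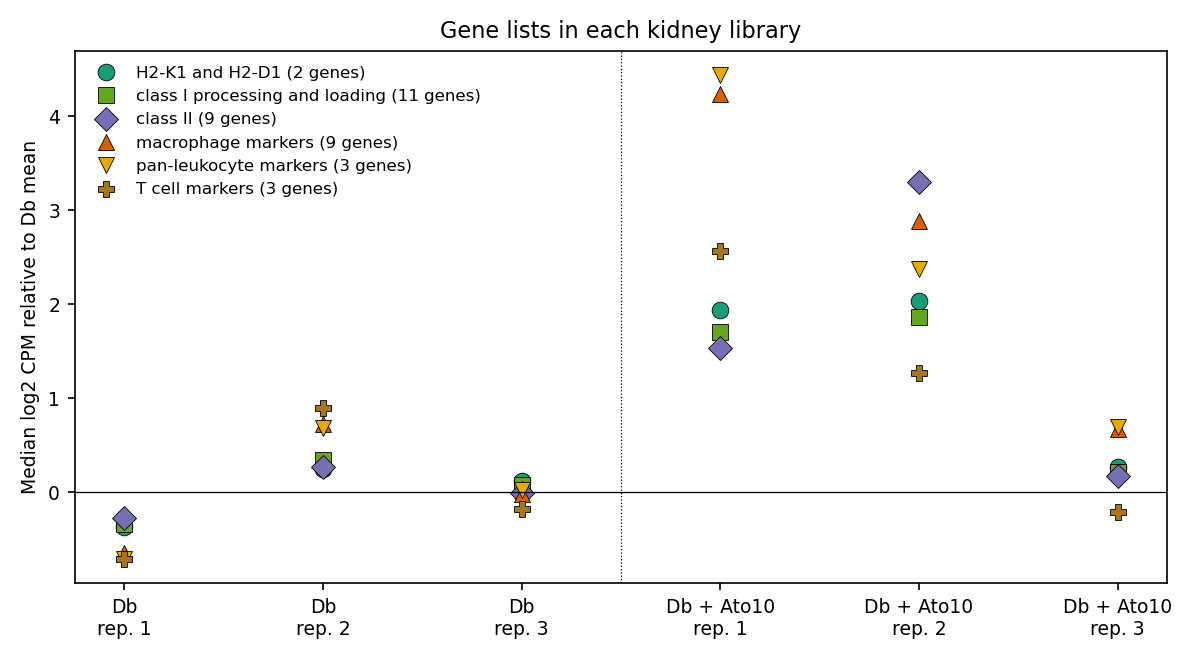
Gene lists in each library. The y axis gives the median over tested genes of log2 CPM relative to the mean of the 3 Db libraries, the x axis the 6 libraries, and each symbol is 1 list. In Db + Ato10 replicate 1 macrophage (4.24) and pan-leukocyte (4.44) markers lie above class II (1.54), whereas in replicate 2 class II (3.3) lies above both (2.89 and 2.37).

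Epithelial and vascular markers also differed between the high libraries. Proximal tubule markers, 6 genes led by Slc34a1, summed to 4896, 3662 and 4885 TPM in Db and 690.3, 2178 and 4512 TPM in Db + Ato10, with 0 of 6 at an unadjusted p under 0.05 in either direction by edgeR and 0 called by DESeq2. Thick ascending limb markers, 4 genes led by Umod, summed to 3447, 4041 and 3688 TPM in Db and 2340.2, 1182 and 2932 TPM in Db + Ato10. Of these 4, 2 were lower at that limit (5.71% of all genes tested) and called lower by DESeq2 (1.3%). All 3 Db + Ato10 sums were below the Db sums. The proximal tubule sum was lowest in Db + Ato10 replicate 1 and the thick ascending limb sum in replicate 2. Podocyte markers, 4 genes led by Podxl, summed to 199, 123 and 124 TPM in Db and 179, 59.2 and 117 TPM in Db + Ato10, with 0 of 4 at that limit. Endothelial markers, 4 genes led by Emcn, summed to 170.4, 146 and 165 TPM in Db and 212, 86.7 and 152 TPM in Db + Ato10, with 1 of 4 lower. Urothelial markers, 5 genes led by Krt5 in the mean and by Upk1a in each Db library, summed to 6.99, 3.4 and 4.91 TPM in Db and 72.3, 39.6 and 11.9 TPM in Db + Ato10. Podocyte and endothelial sums were lowest in Db + Ato10 replicate 2, and the urothelial sums did not overlap between the groups. That separation rested on Krt5, which reached 10 counts in no Db library, so that the filter favoured a difference and its p is not used; it was at 0.33, 0.07 and 0.33 TPM in Db and at 54.5, 32.5 and 9.08 TPM in Db + Ato10. The 4 uroplakin genes without it summed to 6.66, 3.33 and 4.58 TPM in Db and 17.7, 7.08 and 2.83 TPM in Db + Ato10, which overlapped, and Upk1a, the other tested gene, had a log2 fold change of -0.66 ± 0.44 (SE). The part of cell composition in the MHC values was not tested.

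Because class I and class II members moved together in some libraries and apart in others, their promoters were read for shared sequence. RefSeq promoters (build GRCm38.p6, 250 bases before to 50 after the start) were matched for 33 members, with 37 promoters; those not matched were H2-Bl, H2-Q1, H2-Q8, H2-Q9, H2-T10, H2-T24, Nlrc5, Tap2, Tapbpl, Cd74, Ciita, H2-Ab1, H2-Ea-ps and Cd86. The motif CCAAT, which the factor NF-Y binds, was found on either strand in 28 of 37 (75.7%), against 37.4% of all 32851 promoters. TGACG, the core of the X2 box, was found in 15 (40.5%) against 20.8%, in 9 of 17 heavy chain and 5 of 9 processing and loading promoters and 1 of 9 class II promoters (11.1%), of which 3 belong to the untested H2-Eb2, H2-Oa and H2-Ob. The interferon-related motifs TTCNNNGAA and GAAA, any 2 bases, GAAA were found in 3 (8.11%) against 8.3%, and in 4 (10.8%) against 3.44%. CCAAT was frequent in both heavy chains (15 of 17) and class II (8 of 9), and less so in processing and loading genes (4 of 9). Promoters that share bases, such as those of Psmb9 and Tap1 on opposite strands, count separately.

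TGACG followed within 40 bases by ATTGG, the reverse complement of CCAAT, is the order of the X2 and Y boxes of MHC promoters. This pair was chosen after the sequences were seen. It was found in 7 of 37 promoters (18.9%) of 6 genes, against 0.578% of all promoters. The stretches are shown because 5 class I genes and H2-Aa carry the pair at nearly the same spacing, 19 to 21 bases apart. They run 5′ to 3′ on the gene's strand with TGACG and ATTGG in capitals, and all lie before the gene's start; for H2-K1, which has a pair of listed starts, the stretch ends before the earlier one. The build named for the deposited values is mm9, so these coordinates belong to the RefSeq table only. A match is a description and not evidence of binding.
H2-K1, chr17:34000348-34000403, minus strand: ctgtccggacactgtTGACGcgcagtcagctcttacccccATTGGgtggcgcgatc
H2-D1, chr17:35262978-35263037, plus strand: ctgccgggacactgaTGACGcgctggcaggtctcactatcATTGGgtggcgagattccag
H2-Q7, chr17:35439076-35439134, plus strand: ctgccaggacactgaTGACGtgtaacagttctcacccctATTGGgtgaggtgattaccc
H2-M3, chr17:37270173-37270232, plus strand: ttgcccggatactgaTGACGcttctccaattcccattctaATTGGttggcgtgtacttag
B2m, chr2:122147594-122147653, plus strand: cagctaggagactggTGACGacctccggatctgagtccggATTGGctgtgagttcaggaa
H2-Aa, chr17:34287852-34287912, minus strand: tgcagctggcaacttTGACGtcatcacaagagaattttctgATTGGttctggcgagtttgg
Of these 6 genes, H2-K1, H2-D1, B2m, H2-M3 and H2-Q7 differed by less than 1.5-fold between Db + Ato10 replicates 1 and 2, with H2-Q7 at 23.6 and 23.7 CPM, whereas H2-Aa was at 258 and 793 CPM.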

How the data were processed

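Kidney RNA of 6 libraries was sequenced on a BGISEQ-500. The authors deposited expected counts, FPKM and TPM per gene and per transcript; FPKM and TPM were scaled by the authors for length and depth. HISAT, Bowtie2 2.2.5 and mm9 are named in the submitters' processing notes; the counter and the role of each aligner are not given in the sources used here. Columns of group averages were not used. Expected counts were rounded to whole numbers (91.3% of gene values were whole) and tested in edgeR 4.0.16 (R 4.3.3) with TMM factors, from which CPM were computed, and the quasi-likelihood test, with no covariate, for the 13679 genes that reached 10 counts in 3 or more libraries. Called genes had an adjusted p under 0.05 (Benjamini-Hochberg over all genes tested) and differed by over 1.5-fold. Alternatives were DESeq2 1.42.0, limma 3.58.1 (voom, log2 of TPM or FPKM plus 1, log2 of TPM plus 0.1), upper-quartile normalization, other filters, no fold threshold, a replicate block, a class I list without copies, a TPM minimum and each library left out. The scripts were tested on simulated counts. Figures used Python 3.11.15 and matplotlib 3.10.9.

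Members and lists were chosen with earlier results of these data known. Values in every library were given for class II members, B2m, H2-K1, H2-D1 and the processing and costimulatory genes. They were also given for other H2- members with an unadjusted p under 0.05. From each pathway list they were given for up to 3 genes with the smallest p and for the most abundant gene. Exceptions were H2-Oa, H2-Ob, Psmb5 and Nfyc, given as ranges. The most abundant gene of each marker list was named, with values in every library for Lyz2, Slc34a1 and Krt5 only. H2-M2, H2-Eb2, H2-M3, H2-T22, H2-T23, H2-T24, H2-Q10, H2-Ke6, Rfx5, Rfxap, Rfxank, Jak1, Laptm5, Cd79b, Cx3cr1, Itgax, Upk1a and Cd80 were named after their values were seen. The same holds for H2-Q2, H2-Q6, Ctsb, Lgmn, March8 and Clec9a. Pathway lists covered constitutive proteasome and chaperones, endosomal processing, promoter factors, interferon gamma and costimulation. No 2 libraries held identical values. Each library is 1 sample of its group in the labels.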

Additional observations from a re-analysis of the deposited data

How the results depend on the processing

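The number of members called with edgeR was 0 and was 16 with DESeq2; leaving out 1 library gave 0 to 21, with 21 only without Db + Ato10 replicate 3. The number higher at an unadjusted p under 0.05 was 23 (11.2% of all genes tested by edgeR). It was 13 with limma-voom and 14 with limma on log2(TPM + 1), on log2(FPKM + 1) and on log2(TPM + 0.1), and 9 to 27 with 1 library left out. For the limma fits and the replicate block, the share of all genes at that limit was not computed. The number lower was 0, and 0 to 1 with 1 library left out. The heavy chain median log2 fold change of 0.49 was 1.59 without the H2-Q, H2-T and H2-M families, 0.99 with limma-voom, 0.95 with no filter and 0.53 to 1.16 with 1 library left out; it was 0.36 with log2(TPM + 1), 0.33 with log2(FPKM + 1), 0.8 with log2(TPM + 0.1), 0.76 with at least 10 counts in every library and 0.74 at a mean of at least 1 TPM. The processing and class II medians, 1.42 and 2.22, were 1.2 to 1.79 and 1.01 to 2.69 with 1 library left out, 1.1 and 1.53 with log2(TPM + 1), and 1.03 and 1.63 with log2(FPKM + 1). Of 649 values for 44 named genes under alternatives, 585 kept direction and side of the threshold, 56 passed the threshold in the same direction and 8 changed sign, all of Calr: 0.054 by limma-voom, 0.013 after upper-quartile scaling, 0.015 at 10 or more counts in every library, 0.072 with log2(FPKM + 1), 0.048 with the replicate block, 0.26, 0.023 and 0.083 on leaving out Db replicate 1, Db replicate 3 or Db + Ato10 replicate 3, respectively; over the 6 fits with 1 library left out its range was -0.25 to 0.26. The cause was not tested.

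With the replicate block, edgeR called 0 members, 17 were higher at an unadjusted p under 0.05, and the class medians were 0.94 for heavy chains, 1.29 for processing and loading and 1.65 for class II. Deviations from the group means correlated at -0.151, 0.0613 and 0.208 for the 3 shared numbers, so the libraries share only a number and were not treated as pairs. The median of all genes moved from -0.0063 to at most 0.019 and at least -0.092, so no scaling shifted it by over 0.1 on the log2 scale. Depth limits the members with few counts, and intervals and floors cover counting error only.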
